A study of Mus musculus with 22 samples.

Results

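Ronin, the protein of the Thap11 gene, is a zinc finger transcription factor that binds a short DNA motif near the start of many genes together with its cofactor Hcf-1. Nkx2.5::Cre removes floxed Ronin in cardiac progenitors, and cells of the heart where Cre does not act keep their copies. The arrays described here hold RNA of hearts of this cross at E11.5, when the ventricles have trabeculae and the compact wall begins to thicken, and they were chosen by their sample titles. They are 6 of the 22 arrays of the series, with 3 control and 3 knockout hearts, and 11827 of the 19057 genes with a probe were bright enough to be tested.

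Controls were Nkx2.5::Cre, RoninloxP/+ and knockouts were Nkx2.5::Cre, RoninloxP/loxP, both of strain C57BL/6 and both labelled E11.5. Every heart therefore carried the Cre transgene, and the comparison is between loss of both floxed copies and loss of a single copy in the cells where Cre acts. Whether Ronin was also deleted in other cells of the heart, such as circulating blood, was not measured, and whether an array holds 1 heart or a pool is not given in the sources used here. The values are intensities of Illumina MouseWG-6 v2.0 probes, normalized by the authors, and fold changes are on the log2 scale. A gene was called when its adjusted p from limma was under 0.05. Nothing in the labels says that the replicates came from separate litters, so the p-values measure the spread between arrays only. That spread was pooled over the groups of the whole series and not taken from these hearts alone. Fitted alone without the replicate block, these hearts gave 3 higher and 11 lower genes.

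The labels number the hearts 1 to 3 in each group, and the numbers went together in the data: hearts with the same number deviated alike from their group means. Each result is therefore given from the fit without pairing, and from the fit with the replicate number as a block where that changes the call. Median probe intensity was 58.2 to 58.3 in all 6 arrays. Xist, which marks female hearts, was 659, 1018 and 47.0 in controls against 695, 40.1 and 36.7 in knockouts, and the Y-linked gene Eif2s3y was 40.6, 39.7 and 830 in controls against 36.5, 433 and 557 in knockouts. Controls 1 and 2 and knockout 1 thus had the female pattern, and sex was unequal between the groups. With sex as a covariate 13 genes were higher and 31 lower, beside 13 and 45 without it. Of 121 tested genes named in the text, 10 lost their call with this covariate and 1 gained a call. Calls given below are without it. Defining heart muscle genes were bright in every array, with Actc1, the cardiac actin, between 29209 and 34592, while the liver genes Afp and Alb and the endoderm gene Foxa2 lay below the median probe. Other members of those lists did pass it, 5 of 9 for liver and 3 of 8 for foregut endoderm, and none of them was called in either fit. The mean of the liver members that passed was −0.06 to 0.06 in controls and −0.25 to −0.11 in knockouts, relative to the control mean.

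Thap11 had an intensity of 2014, 2022 and 1855 in controls and 1297, 1424 and 1000 in knockouts. The groups did not overlap, and transcript remained in every knockout. The log2 difference was −0.68, with p = 0.1 in a two-sided exact permutation test, which is the smallest p that 3 against 3 allows. In the limma fit across all genes it did not pass, at an adjusted p of 0.48 without and 0.078 with the replicate block. The sources used here do not place the Thap11 probe relative to the floxed stretch. Hcfc1, which encodes Hcf-1, was 1047, 1249 and 1231 in controls against 933, 1216 and 965 in knockouts, with overlapping groups (adjusted p = 0.86 from limma).

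Without pairing 13 genes were higher and 45 lower in knockout hearts, which is 0.11% and 0.38% of the genes tested. With the replicate block the counts were 254 and 235, or 2.15% and 1.99%, and all 13 and all 45 were among them. The genes called in both fits therefore made up 5.1% of the higher and 19.1% of the lower calls with pairing. In all 58 genes called without pairing the 3 knockouts and the 3 controls did not overlap. Over all genes tested, 4.14% lay wholly above and 8.57% wholly below the controls.

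The lower genes had a sequence in common that was not used to choose them. The core of the Ronin motif, ACTACA and, after 3 bases of any kind, CCC, was searched on both strands in the RefSeq promoter windows, which run from 250 bases before to 50 bases after each annotated start (GRCm38.p6). Of the 9554 tested genes with a window, 480 (5.02%) held the core. It was in 23 of the 40 lower genes with a window (57.5%) and in 2 of the 12 higher genes (16.67%, Sesn2 and Gm5113). With pairing the shares were 47 of 192 lower genes (24.48%) and 19 of 203 higher genes (9.36%). A match of letters describes the sequence and does not show that Ronin is bound there.

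The following stretches are shown because they carry the core, in capitals, in front of 6 genes that fell and whose products work in mitochondria or lie beside such a gene. Each is written 5′ to 3′ in the direction of its gene, and their places in GRCm38.p6 are chr11:4704366-4704427 (minus strand) for Uqcr10, chr11:101278978-101279039 (minus) for Coa3, chr3:87919382-87919443 (plus) for Mrpl24, chr7:127904004-127904065 (plus) for Bckdk, chr14:79397716-79397777 (plus) for Mtrf1 and chr9:26999613-26999674 (plus) for Thyn1.
Uqcr10: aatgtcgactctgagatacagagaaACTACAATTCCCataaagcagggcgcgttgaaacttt
Coa3: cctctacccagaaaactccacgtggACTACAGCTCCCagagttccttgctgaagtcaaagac
Mrpl24: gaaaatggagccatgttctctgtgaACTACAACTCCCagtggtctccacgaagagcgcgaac
Bckdk: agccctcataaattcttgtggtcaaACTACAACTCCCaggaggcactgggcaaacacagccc
Mtrf1: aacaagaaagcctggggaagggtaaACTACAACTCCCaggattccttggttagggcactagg
Thyn1: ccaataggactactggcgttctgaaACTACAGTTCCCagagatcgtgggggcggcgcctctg

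The 23 lower genes held 31 matches, and 7 genes held more than 1. All 31 began before the annotated start, 27 of them within 150 bases of it, with a median first base at −58 and a range from −231 to −4. On the gene's own strand lay 23 of the 31. Thyn1 and Acad8 are read in opposite directions from a shared stretch of chromosome 9, and both matches there count for both genes. Uqcr10 and Zmat5 share such a stretch on chromosome 11, and Zmat5, whose product is a spliceosome protein, fell by 0.91 (adjusted p = 0.0083 from limma), a call lost without control 1, control 3 or knockout 1. In the plot of motif shares, the lower genes without pairing have a share close to that of genes bound by Ronin in the study's chromatin experiments. Of those bound genes, 125 of 246 with a window held the core (50.81%). The lower genes are mostly other genes than these. Among the lower genes with the core, only Acad8, Adck1, Mrpl34, Pafah2, Rabac1 and Thyn1 are on the list of bound promoters. Of the stretches shown above, only that of Thyn1 belongs to a gene on it.

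**Figure D1:**
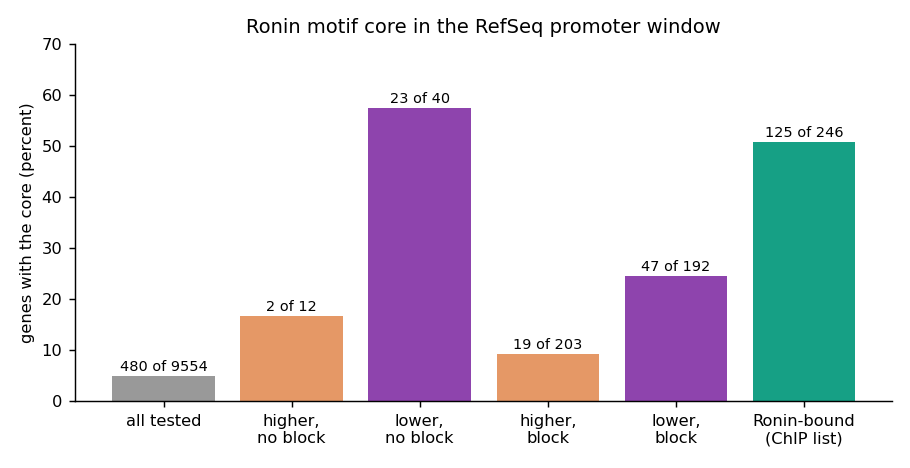
Share of genes (percent, vertical axis) whose RefSeq promoter window holds the Ronin motif core, among all tested genes, genes higher or lower without and with the replicate block, and genes on the list of Ronin-bound promoters, with the counts above each bar. The 23 of 40 lower genes without the block stand against 480 of 9554 for all tested genes.

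Uqcr10, a small subunit of respiratory complex III, showed the smallest adjusted p of the lower genes. Its intensity was 21967, 20709 and 22684 in controls against 8585, 9798 and 7908 in knockouts. Each knockout thus held less than any control, and the controls spanned a narrow range. The log2 fold change was −1.32 (SE 0.12; limma, adjusted p = 5.3e-06), and its other probe lay at −1.40. Coa3, an assembly factor of cytochrome oxidase, was 4941, 4729 and 4807 in controls against 2124, 2530 and 2048 in knockouts. It fell by 1.12 on the log2 scale (SE 0.11; limma, adjusted p = 1.6e-05), and its other probe was at −1.10. Thyn1, a nuclear protein, was 2501, 2315 and 2599 in controls against 976, 1057 and 982 in knockouts, a change of −1.30 on the log2 scale with an error (SE) of 0.15 (limma, adjusted p = 2.6e-04). Among these genes knockouts varied little, and no knockout came near a control.

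Further lower genes with the core act in mitochondrial translation and in metabolism. Mtrf1, a release factor of mitochondrial translation, was 286, 297 and 318 in controls against 133, 136 and 130 in knockouts, and Mrpl24, of the large mitochondrial ribosomal subunit, was 1083, 1205 and 1471 in controls against 515, 700 and 598 in knockouts. They fell by 1.18 and 1.05 (adjusted p = 0.0029 and 0.0048 from limma). Mrpl34, another protein of that subunit with 3 matches in its window, fell by 0.84 (adjusted p = 0.026 from limma). The Mrpl24 call was lost without control 3 and the Mrpl34 call without any array but knockout 3. Dimmer probes of Mtrf1 lay at −0.55 and −0.29. Bckdk, the kinase that restrains breakdown of branched-chain amino acids, was 1652, 1503 and 1744 in controls against 470, 767 and 776 in knockouts, with knockout 1 the lowest. It fell by 1.32 (adjusted p = 0.0037 from limma), and both of its probes lay at −1.32. Acad8, which acts in valine breakdown, was 315, 219 and 285 in controls against 112, 123 and 107 in knockouts (log2 fold change −1.25, adjusted p = 0.015 from limma), and the call ended without control 1, control 3 or knockout 1. Leaving out each array in turn gave −1.40 to −1.13. Mdh1, the cytosolic malate dehydrogenase, was 1330, 1078 and 1363 in controls against 571, 427 and 500 in knockouts. It fell by 1.33 (adjusted p = 0.0071 from limma), a call lost without control 1 or control 3. Its single called probe is the bright one, and 2 dimmer probes lay at −0.54 and −0.59.

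Pomgnt2, a glycosyltransferase that acts on dystroglycan, had the largest decrease among the genes with the core. It was 546, 440 and 568 in controls against 209, 183 and 136 in knockouts, a change of −1.57 on the log2 scale with an error (SE) of 0.20 (limma, adjusted p = 4.5e-04), and its other probes were at −1.18 and −0.78. Adck1, a mitochondrial kinase-like protein, was 293, 301 and 287 in controls against 127, 136 and 142 in knockouts (log2 fold change −1.12, adjusted p = 9.2e-04 from limma). Thtpa, which breaks down thiamine triphosphate, fell by 1.02 on the log2 scale, and Tha1, a threonine aldolase, by 1.18 (adjusted p = 0.0041 and 0.0050 from limma). Setmar, a methyltransferase, fell by 0.94 (adjusted p = 0.023 from limma). The Thtpa and Tha1 calls were lost without control 1 and the Setmar call without any array but knockout 3. In all 5 genes the knockouts lay wholly below the controls.

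**Figure D2:**
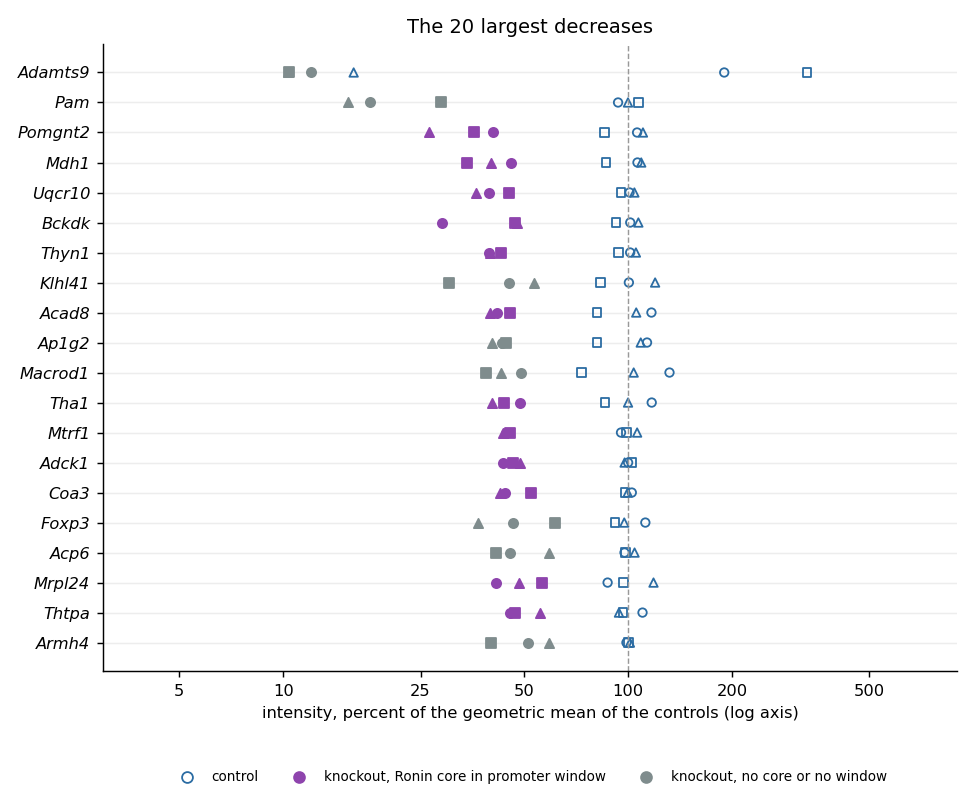
Intensity in each array as a percent of the geometric mean of the 3 controls (horizontal log axis) for the 20 genes with the largest decreases among called genes whose groups do not overlap. Open blue marks are controls, filled marks knockouts (purple with the Ronin core in the promoter window, grey without it or without a window), with circle, square and triangle for replicates 1, 2 and 3. Adamts9 control 3 stands near the knockouts and far from controls 1 and 2.

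The largest decreases of all were in genes without the core. Adamts9, a secreted protease of the extracellular matrix, was 1215, 2109 and 102 in controls against 77.0, 66.3 and 66.3 in knockouts, and control 3 thus lay close to the knockouts and controls 1 and 2 far above. The log2 fold change of −3.20 (SE 0.68; limma, adjusted p = 0.034) ranged from −4.52 to −2.34 over the arrays left out, was no longer called without control 1, control 2, knockout 1 or knockout 2, and a second probe of the gene was at 0.14. Pam, an enzyme that amidates peptides, was 231, 265 and 247 in controls against 44.2, 71.0 and 38.1 in knockouts (log2 fold change −2.33, adjusted p = 0.033 from limma). The mean of the Pam knockouts lay below the median probe, so that the gene entered the test through its controls and its fold is against a level near the floor of the arrays. A dimmer second probe of Pam was at −0.05, and the call was lost without any single control or knockout 1. Klhl41, of the sarcomere, was 559, 463 and 666 in controls against 251, 169 and 296 in knockouts (log2 fold change −1.26, adjusted p = 0.0098 from limma), a call lost without control 1, control 3 or knockout 2. Foxp3 fell by 1.09 through 1 of its 4 probes (adjusted p = 0.0074 from limma), while its other 3 lay between −0.07 and 0.01, at or near the level of the median probe. The Foxp3 call was lost without control 1 or control 3. Of the 21 lower genes with another probe above the median probe, 16 had all such probes in the same direction, and Adamts9, Ap1g2, Clpb, Foxp3 and Pnkd did not.

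Of the 13 genes that rose, 6 are on the lists of the integrated stress response, which hold 54 of the 11827 genes tested. These lists were chosen with earlier results of these data known, so the overlap is a description and not a test. When amino acids run short, mitochondria fail or proteins misfold, kinases phosphorylate the initiation factor eIF2alpha, and the transcription factor Atf4 is then translated and turns on genes that import and make amino acids and charge tRNAs. Chac1, which degrades glutathione, and Slc7a3, an importer of cationic amino acids, had the largest increases of all genes tested. Chac1 was 120, 123 and 132 in controls against 1594, 1411 and 1090 in knockouts, a change of 3.43 on the log2 scale with an error (SE) of 0.45 (limma, adjusted p = 6.5e-04). Slc7a3 was 91.0, 96.9 and 68.7 in controls against 1146, 875 and 751 in knockouts, a change of 3.43 on the log2 scale with an error (SE) of 0.26 (limma, adjusted p = 8.3e-07). In both genes every knockout exceeded every control by far, and knockout 3 was the lowest of the knockouts. A second probe of Slc7a3, below the median probe, was at 0.09.

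Atf4 binds with C/EBP proteins to a composite element, TGATG and, after 1 base of any kind, AA, and this was searched on both strands in the same windows. It was in 281 of 9554 tested genes (2.94%), in 12 of the 42 stress response genes with a window (28.57%) and in 3 of the 12 higher genes with a window (25%). Among the genes called with pairing it was in 14 of 203 higher (6.9%) and 8 of 192 lower genes (4.17%). The stretches shown are those of 4 stress genes that were higher in knockout hearts (Trib3 and Slc1a4 in the fit with pairing), with the element or its reverse complement in capitals. They lie at chr2:119351024-119351081 (plus strand) for Chac1, chr6:7693200-7693257 (minus) for Asns, chr2:152344014-152344071 (minus) for Trib3 and chr11:20332685-20332742 (minus) for Slc1a4.
Chac1: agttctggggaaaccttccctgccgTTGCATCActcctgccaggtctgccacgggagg
Asns: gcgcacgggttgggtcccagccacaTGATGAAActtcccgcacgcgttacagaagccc
Trib3: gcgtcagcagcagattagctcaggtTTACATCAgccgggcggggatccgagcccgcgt
Slc1a4: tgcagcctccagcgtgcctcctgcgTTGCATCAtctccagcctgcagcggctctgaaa

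Of the 15 transcription factors and feedback genes of the response, all tested, 4 rose without pairing and 9 with it, and none fell in either fit. Their median log2 fold change was 0.75, against −0.02 for all genes tested, and 13 of 15 lay above 0. Atf5, a factor close to Atf4, was 213, 242 and 218 in controls against 689, 768 and 449 in knockouts (log2 fold change 1.47, adjusted p = 0.0013 from limma). Ddit3, the stress factor also known as Chop, was 436, 424 and 325 in controls against 828, 1181 and 692 in knockouts (log2 fold change 1.16, adjusted p = 0.023 from limma), and its other probe was at 1.03. The Ddit3 call was lost without any array but knockout 3. Sesn2, which restrains growth signals when amino acids are short, rose by 0.75 (adjusted p = 0.0088 from limma), though of its 2 other probes, both near the median probe, 1 lay at 0.35 and 1 at −0.10, and the call was lost without control 2, control 3 or knockout 1. Atf4 itself was 2705, 4107 and 2658 in controls against 3688, 5382 and 3360 in knockouts, with overlapping groups (adjusted p = 0.67 from limma, and 0.062 with the replicate block).

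Trib3, a pseudokinase that feeds back on the response, showed what pairing changes. It was 544, 504 and 127 in controls against 2134, 2276 and 481 in knockouts. Knockout 3 was lower than controls 1 and 2, yet each knockout stood about as far above the control of its number. The log2 fold change was 2.02, with an adjusted p of 0.093 without the replicate block and 4.6e-06 with it (limma), and all 3 probes were above 1. Cebpb, Cebpg, Ppp1r15a and Gadd45a likewise passed in the paired fit only, at log2 fold changes of 0.84, 0.55, 1.05 and 1.14 (adjusted p = 0.0027, 0.0082, 0.006 and 0.0063 with the replicate block, from limma). Cebpb and Cebpg encode C/EBP factors, Ppp1r15a reverses the phosphorylation of eIF2alpha, and Gadd45a marks growth arrest.

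**Figure D3:**
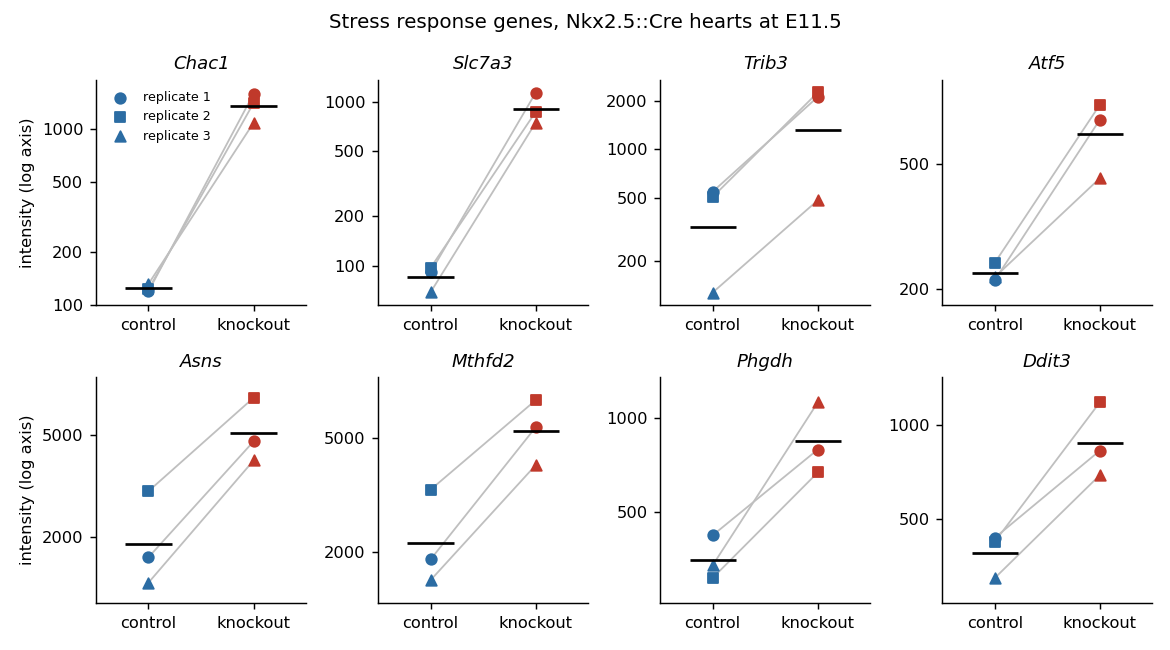
Intensity (vertical log axis, a scale of its own in each panel) of 8 stress response genes in control (blue) and knockout (red) hearts, with lines joining hearts of the same replicate number and black bars at the geometric mean of a group. Trib3 of knockout 3, at 481, is below controls 1 and 2, and every line rises.

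Of the enzymes that make serine, glycine, asparagine and folate-bound carbon, 1 was called higher without pairing and 6 with it. All 11 tested members were above 0, with a median of 0.62, and 8 of them lay wholly above the controls, against 4.14% of all genes. Asns, which makes asparagine, was 1660, 3009 and 1322 in controls against 4711, 6976 and 3970 in knockouts. It rose by 1.43 (SE 0.28; limma, adjusted p = 0.017), was the only member called without pairing, and its other probes were at 1.19 and 1.67. That call ended without control 1, control 3, knockout 1 or knockout 2. Leaving out each array in turn gave 1.18 to 1.78. Mthfd2, the mitochondrial folate enzyme, was 1890, 3306 and 1600 in controls against 5458, 6778 and 4027 in knockouts (log2 fold change 1.30, adjusted p = 0.089 without and 5.3e-05 with the replicate block, from limma). Phgdh, the first enzyme of serine synthesis, was 423, 310 and 340 in controls against 792, 670 and 1118 in knockouts (log2 fold change 1.25, adjusted p = 0.065 without and 0.0028 with the replicate block, from limma). Psat1, the next enzyme of that route, Aldh18a1, of proline synthesis, and Cth, of cysteine synthesis, passed in the paired fit at 0.62, 0.88 and 0.44 (adjusted p = 0.019, 0.011 and 0.0078 with the replicate block, from limma). The mean of the Cth controls lay just below the median probe, so that Cth entered the test through its knockouts.

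Of 9 tested amino acid transporters of the response, Slc7a3 rose in both fits, and the neutral amino acid carrier Slc1a4 and the glycine carrier Slc6a9 passed with pairing, at 1.05 and 0.95 (adjusted p = 0.0018 and 0.0063 with the replicate block, from limma). Slc6a9 was highest in replicate 2 and lowest in replicate 3 of both groups, as the red cell genes were. Asns, Mthfd2, Atf4, Cebpg and Gadd45a had the same order, while Chac1, Slc7a3, Atf5, Ddit3 and Trib3 did not. Slc7a11, the cystine carrier, was at 0.20 and did not pass, while a slightly dimmer probe of the gene lay at 0.69. Of 19 cytosolic tRNA synthetases 15 lay above 0, with a median of 0.10, and Aars and Nars, for alanine and asparagine, passed with pairing at 0.57 and 0.62 (adjusted p = 0.0070 and 0.016 with the replicate block, from limma). No member of either list was called lower, though 2 of the 9 transporters and 4 of the 19 synthetases lay below 0. Bcat1, which starts branched-chain amino acid breakdown in the cytosol, was 316, 494 and 517 in controls against 858, 846 and 1035 in knockouts (log2 fold change 1.07, adjusted p = 0.026 from limma), a call lost without any array but knockout 3. Slc25a33, a mitochondrial pyrimidine carrier, was 265, 263 and 267 in controls against 504, 490 and 600 in knockouts (log2 fold change 1.00, adjusted p = 0.0033 from limma). Cyb5r2, a cytochrome b5 reductase, was 55.3, 61.9 and 60.6 in controls, at the level of the median probe, and 116, 139 and 105 in knockouts (log2 fold change 1.01, adjusted p = 8.4e-04 from limma). Niban1, Nceh1, Gm5113 and Trappc3 completed the 13, at 0.89, 0.83, 0.91 and 0.55 (adjusted p = 0.017, 0.033, 0.019 and 0.033 from limma). Each of these 4 calls was lost without at least 3 of the 6 arrays in turn.

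The endoplasmic reticulum genes of the unfolded protein response did not move this way as a list. Of 17 tested chaperones and factors none was called in either fit. Their median was −0.21, and 4 lay above 0, with Calr highest at 0.51. Hspa5, the chaperone also known as BiP, was 98.6, 129 and 108 in controls against 77.8, 93.0 and 113 in knockouts, with overlapping groups. Its probe was dim, at a geometric mean of 102 over the 6 arrays, beside 9072 for Hsp90b1 of the same list. Of 13 mitochondrial chaperones, proteases and stress genes, Htra2, a protease, passed with pairing at 0.48 (adjusted p = 0.036 with the replicate block, from limma), and the median was −0.03. Of 6 tested eIF2alpha kinases and related genes, Eif2ak1, the heme-regulated kinase, passed with pairing. It was 491, 660 and 349 in controls against 730, 1254 and 551 in knockouts, with overlapping groups and a log2 fold change of 0.72 (adjusted p = 0.41 without and 0.015 with the replicate block, from limma). Eif2ak1 is also a gene of red cell precursors.

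Red cell genes were higher in knockouts once replicates were paired. Of 11 tested erythroid markers none was called without pairing and 7 were called with it, all higher, with a median log2 fold change of 1.00. The median was 1.52 without control 2, 0.46 without control 3 and 0.45 without knockout 2. Their mean level relative to the control mean was −0.07, 0.75 and −0.67 in controls 1, 2 and 3 against 0.69, 1.53 and 0.30 in knockouts 1, 2 and 3. Replicate 2 was highest and replicate 3 lowest in both groups, so that control 2 lay above knockouts 1 and 3. Rhag, a red cell membrane protein, was 139, 250 and 87.1 in controls against 358, 835 and 279 in knockouts (log2 fold change 1.59, adjusted p = 0.065 without and 1.1e-04 with the replicate block, from limma). Alas2, the first enzyme of heme synthesis in red cells, was 3094, 6249 and 763 in controls against 7478, 13067 and 3467 in knockouts (log2 fold change 1.51, adjusted p = 0.0025 with the replicate block, from limma). Klf1, the erythroid transcription factor, and Slc4a1, the anion exchanger of the red cell, passed at 1.27 and 1.00 (adjusted p = 0.0014 and 0.0025 with the replicate block, from limma). The embryonic globin Hba-x was 35018, 37502 and 22783 in controls against 41150, 45666 and 37001 in knockouts, and Hbb-bh1, another, was 28242, 41305 and 27883 in controls against 38317, 45863 and 35796 in knockouts. They lay at 0.41 and 0.32 and did not pass in either fit, though each knockout was above the control of its number. Hbb-y was 41442, 40483 and 44573 in controls against 46208, 47341 and 31786 in knockouts, and was the only marker of the list below 0. Its probe was the brightest of control 3 and knockout 1, at the top of the scale of these arrays. The brightest probe of an array lay between 41422 and 48818. Values of Hba-x and Hbb-bh1 also came near that top, where differences can be compressed.

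Of 15 tested heme and iron genes 14 lay above 0 and 7 passed with pairing, among them Fech, which inserts iron into heme, at 1.10, Slc25a37, the iron importer of mitochondria, at 1.13, and Urod, another heme enzyme, at 0.69. Further large increases of the paired fit had the same order of replicates, such as Pdzk1ip1 at 1.62. In 193 of the 241 genes higher with pairing only (80.1%), replicate 2 lay above replicate 3 in both groups, against 3594 of the 11827 genes tested (30.4%) and 6 of the 13 higher in both fits. Among genes lower with pairing only it was 31 of 190 (16.3%). In whole hearts, more red cells and more of these transcripts in each red cell cannot be told apart. For the stress response factors the mean levels were 0.15, 0.12 and −0.28 in controls and 1.04, 1.10 and 0.53 in knockouts, without overlap of the groups. For the serine and one-carbon enzymes they were 0.05, 0.15 and −0.20 in controls and 0.71, 0.74 and 0.74 in knockouts, again without overlap. Single members of these lists, such as Asns, Mthfd2, Atf4, Cebpg and Gadd45a, still had the replicate order of the red cell genes. The part of the red cell genes in the other paired calls was not tested.

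**Figure D4:**
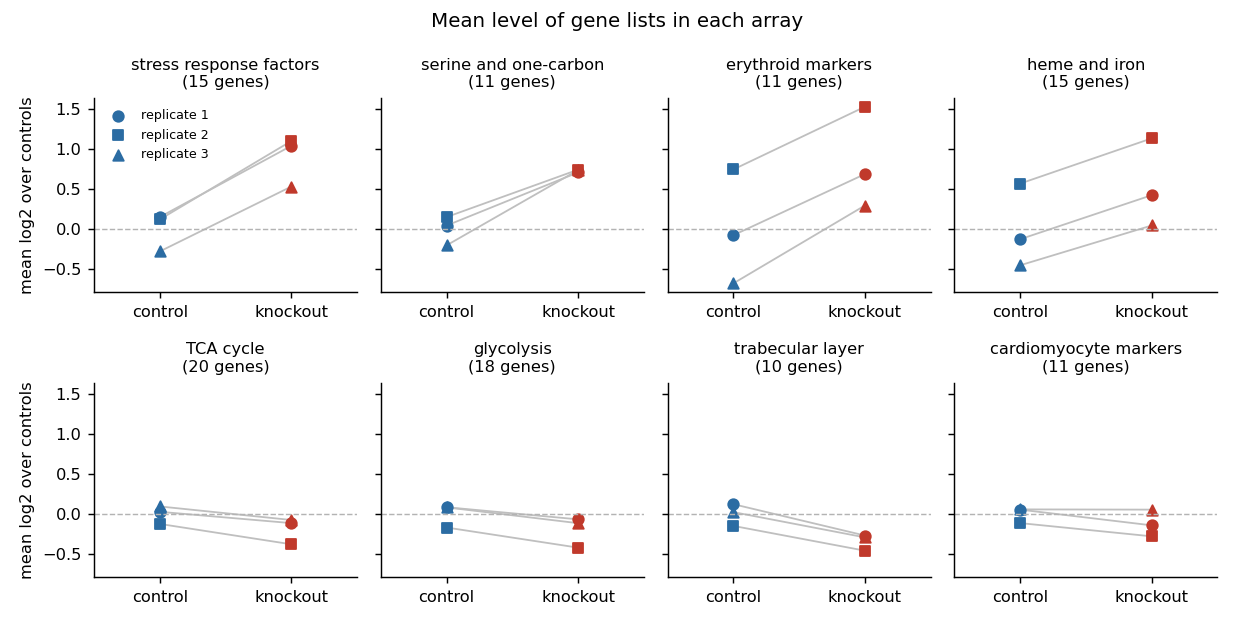
Mean log2 level of 8 gene lists in each array relative to the mean of the 3 controls (vertical axis, the same in all panels), with lines joining hearts of the same replicate number. In erythroid markers replicate 2 is highest and replicate 3 lowest in both groups, while stress response factors and serine enzymes separate the groups.

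Against these increases, energy genes as groups moved little. Of 85 tested genes of the respiratory chain and ATP synthase 28 lay above 0, with a median of −0.08, and Uqcr10 was the only member called without pairing. With pairing, the cytochrome oxidase subunits Cox7a1 and Cox7a2 were called lower at −0.71 and −0.68 (adjusted p = 0.0017 and 0.021 with the replicate block, from limma), and Cox6a2, a subunit of heart and muscle, was called higher at 0.72. Cox6a2 was 9620, 6054 and 8069 in controls against 15185, 11026 and 12561 in knockouts, without overlap. The 38 genes of complex I had no call in either fit and a median of −0.04, which ran from −0.097 to 0.010 over the arrays left out and was above 0 only without control 1 or knockout 2. Of 71 mitochondrial ribosomal proteins, Mrpl24, Mrpl34 and Mrpl54 fell and none rose in either fit, and the median was −0.05. Mrpl54 fell by 0.56 (adjusted p = 0.033 from limma), and its call was lost without any array but knockout 3.

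Of 20 TCA cycle genes with their pyruvate and malate partners 6 lay above 0, with a median of −0.14, and besides Mdh1 its mitochondrial counterpart Mdh2 was called lower with pairing, at −0.47 (adjusted p = 0.019 with the replicate block, from limma). Of 19 fatty acid oxidation genes, Etfdh, which passes electrons on to ubiquinone, was called lower with pairing at −0.84 (adjusted p = 0.0089 with the replicate block, from limma). Glycolysis had 16 of 18 genes below 0 and a median of −0.20. Aldoc, Pgam2 and Aldoa, enzymes of that route, were called lower with pairing at −0.73, −0.47 and −0.35 (adjusted p = 0.0044, 0.036 and 0.041 with the replicate block, from limma). The mean of the glycolysis list was 0.09, −0.17 and 0.08 in controls against −0.07, −0.42 and −0.11 in knockouts, with control 2 below knockouts 1 and 3. Replicate 2 was thus lowest where the erythroid list was highest.

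Genes of the trabecular layer, the inner muscle ridges of the ventricle, were lower in part. Of 10 tested members 8 lay below 0, with a median of −0.35, none was called without pairing, and Cited1, Gja5 and Sema3a were called lower with it. Gja5, the connexin of the conduction system, was 3692, 2791 and 4134 in controls against 2046, 1536 and 2048 in knockouts (log2 fold change −0.91, adjusted p = 0.081 without and 4.7e-04 with the replicate block, from limma). Cited1, a transcription cofactor, was 3164, 1414 and 2263 in controls against 1077, 879 and 1358 in knockouts (log2 fold change −0.99, adjusted p = 0.21 without and 0.0063 with the replicate block, from limma). In all 3 the groups were apart. The mean of the list was 0.12, −0.15 and 0.02 in controls against −0.27, −0.46 and −0.29 in knockouts, lowest in replicate 2 of both groups and without overlap. Nppa, the atrial natriuretic peptide, was 38445, 37708 and 37122 in controls against 40037, 41523 and 29785 in knockouts. Most of these values lie near the top of the scale of the arrays, where differences can be compressed. Bmp10, a growth factor of trabeculae, was 101, 86.3 and 93.3 in controls against 143, 117 and 132 in knockouts (log2 fold change 0.49, adjusted p = 0.49 without and 0.084 with the replicate block, from limma). Of 10 compact layer genes 5 lay above 0, and Pln, the regulator of the calcium pump, was called lower with pairing at −0.70 (adjusted p = 0.037 with the replicate block, from limma). None of 15 Notch, ephrin and neuregulin genes was called in either fit, and Notch1 was at −0.33 (adjusted p = 0.71 from limma).

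Nppb, the brain natriuretic peptide, was 5018, 7918 and 7747 in controls against 16000, 11660 and 9997 in knockouts (log2 fold change 0.87, adjusted p = 0.33 without and 0.019 with the replicate block, from limma). Cdkn1a, the cell cycle inhibitor p21, passed with pairing at 0.76 (adjusted p = 0.045 with the replicate block, from limma), while none of 25 replication and 16 mitosis genes was called in either fit, at medians of −0.03 and −0.04. Tbx18 and Tcf21, factors of the epicardium, went opposite ways with pairing, at −1.15 and 0.61 (adjusted p = 0.044 and 0.035 with the replicate block, from limma). Knockout 2 had the lowest Tbx18, at 42.7, below the median probe. Gclm, of glutathione synthesis, passed with pairing at 1.15 (adjusted p = 0.0030 with the replicate block, from limma), in the order of replicates of the red cell genes. None of the 11 cardiomyocyte or 9 endothelial markers was called in either fit, and their medians were −0.084 and −0.001.

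The list of promoters bound by both Ronin and Hcf-1 in the study's chromatin experiments, used for membership alone, had 258 tested genes. Without pairing 10 of the 258 fell and 1 rose, against 45 and 13 of the 11827 genes tested (0.38% and 0.11%). With pairing 18 of the 258 fell and 17 rose, against 235 and 254 of all genes tested (1.99% and 2.15%). Calls in both directions were thus more frequent among the bound genes. The median log2 fold change of the bound genes was −0.04, against −0.02 for all genes tested, and 113 of 258 lay above 0. Apba3 and Smarcal1, which the study names, were at −0.60 and −0.53, called with pairing only (adjusted p = 0.035 for each with the replicate block, from limma). Apba3 was 384, 414 and 505 in controls against 237, 241 and 403 in knockouts, with knockout 3 above control 1. Ctf1, the cytokine cardiotrophin 1, was at −0.28 and did not pass in either fit. Of 43 tested genes bound by Ronin without Hcf-1 none was called without pairing, and their median was 0.05. With pairing Ncoa4, which delivers ferritin for breakdown, was higher at 1.14 and Hnrnpa1, a splicing factor, lower at −0.50 (adjusted p = 0.010 and 0.022 with the replicate block, from limma).

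Hearts of the same cross at E9.5 (4 arrays) and hearts with αMHC::Cre at E11.5 (4 arrays), which removes Ronin in heart muscle cells, are separate arrays with controls of their own. The study reports that αMHC::Cre acts later in development than Nkx2.5::Cre, so less time had passed since deletion in the αMHC hearts. Of the 45 genes lower here 42 were below 0 at E9.5, against 47.7% of the genes measured in both, with a median of −0.57. Among the genes tested here 34 were called lower at E9.5, and 22 of them were among the 45, which is 64.7% of the E9.5 calls and 48.9% of the E11.5 calls. All 23 lower genes with the core were below 0 at E9.5 and 16 were called there, among them Uqcr10, Coa3, Bckdk and Thtpa. The lower genes with a window but no core were below 0 in 14 of 17, with 3 called. In αMHC hearts all 23 were below 0 with a median of −0.23, and none was called. The lower genes without the core were below 0 there in 16 of 17, with a median of −0.16, against 52.5% of all genes tested in both.

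The lower genes mostly kept their direction at E9.5, with a median of −0.57 there and −0.98 here. The lower and the higher genes were chosen by their values at E11.5, so smaller medians elsewhere do not by themselves show smaller effects. The higher genes had a median of 0.05 at E9.5, with 9 of 12 above 0, beside 1.01 here. Of the 13, Gm5113 and Trappc3 were called higher at E9.5 too, at 0.89 and 0.52. Chac1 was at 0.19 and Slc7a3 at −0.01 there. The stress response factors had a median of −0.05 at E9.5 and 0.20 in αMHC hearts, beside 0.75 here. Erythroid markers had a median of −0.08 at E9.5 and 0.43 in αMHC hearts, beside 1.00 here. For heme and iron genes the medians were −0.04, 0.39 and 0.46. When the effects themselves were compared, the increase of Slc7a3 at E11.5 exceeded that at E9.5 by 3.44 (SE 0.33; limma, adjusted p = 4.0e-05), and with the replicate block the same held for Chac1, Trib3, Asns, Mthfd2, Atf5 and Ddit3 (adjusted p = 2.4e-05, 6.5e-05, 8.0e-04, 0.0015, 0.0031 and 0.013 from limma). In total 1 gene had a higher and 1 a lower effect than at E9.5 without the block, and 40 and 14 with it. Against αMHC hearts the counts were 5 and 4 without and 10 and 9 with the block. The αMHC knockouts and controls differ in sex as well. Sex, the cells the driver reaches and the time since deletion cannot be told apart in that comparison.

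**Figure D5:**
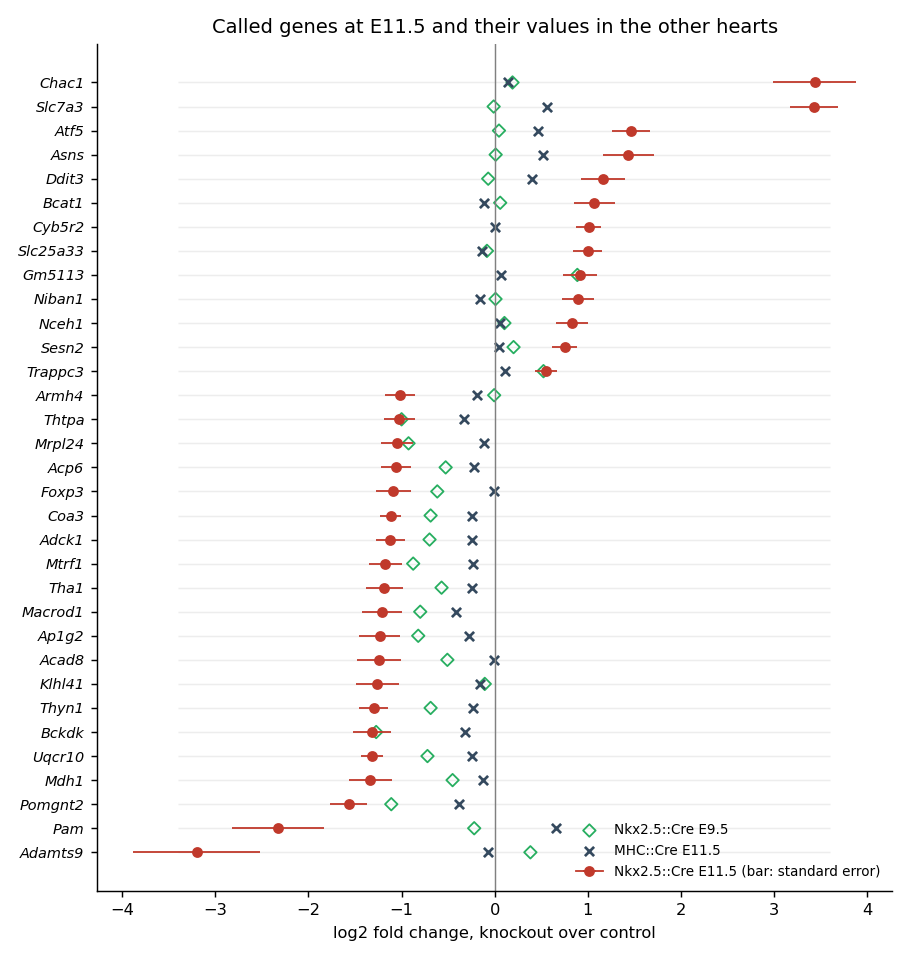
Log2 fold change of knockout over control (horizontal axis) for the 33 named increases and decreases of Nkx2.5::Cre hearts at E11.5 (red, bars are standard errors of the fit), with the values of Nkx2.5::Cre hearts at E9.5 (green diamonds) and αMHC::Cre hearts at E11.5 (crosses). Some decreases, such as Bckdk and Thtpa, lie at like values at E9.5, while others are smaller there and Armh4 lies near 0. Chac1 and Slc7a3 lie near 0 at E9.5 too, and Cyb5r2, too dim for the test at E9.5, has no value there.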

How the data were processed

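Whole-heart RNA was hybridised to Illumina MouseWG-6 v2.0 arrays. The deposited values are intensities on a linear scale, which the authors normalized with a cubic spline, and they were taken to log2 here. A second deposited table, not normalized, was not used, since its 22 sample columns match no label. Of the probes, 34885 had 1 gene symbol, 18 several and 10378 none. A gene was its brightest probe, kept where brighter than the median probe (58.1). The number of arrays limits the precision.

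Groups came from the sample titles. limma 3.58.1 (R 4.3.3, with statmod 1.5.0) was fitted on all 22 arrays with 10 group means, array weights for each comparison and a trended prior, with 12 residual degrees of freedom, or 6 with the replicate number as a block. Benjamini-Hochberg adjustment ran over the 11827 genes tested. Deviations of same-numbered hearts correlated at 0.438, 0.613 and 0.520 and those of other pairs at −0.526 to −0.0936, so the numbers were taken to pair the hearts, though the labels do not say what a number marks. Named genes were the study's own, the 15 largest increases and 20 largest decreases, the 15 largest each way with the block, and called, leading or first-written members of each list. The members and lists were chosen with earlier results of these data known. Promoter windows were those of RefSeq (GRCm38.p6), found for 9554 of the genes tested. The script was tested on simulated data. Alternatives were the block, equal weights, other probe rules and filters, other scalings, sex as a covariate, the 6 arrays alone and each array left out.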

Additional observations from a re-analysis of the deposited data

Results flagged for a closer look

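The effects of Ronin loss at E11.5 were compared with those in the other hearts by a test of the difference itself (limma, without pairing), and 10 genes differed. Chac1 and Slc7a3 rose by 3.29 and 2.86 more on the log2 scale with Nkx2.5::Cre than with αMHC::Cre at the same age (adjusted p = 0.021 and 5.7e-04). Slc25a33 and Cyb5r2 had effects higher by 1.13 and 1.01 (adjusted p = 0.021 for each). Uqcr10, Thyn1 and Coa3 had effects of −1.07, −1.07 and −0.88 relative to αMHC hearts (adjusted p = 0.0040, 0.034 and 0.015), and they were below 0 in both. Rpe, of the pentose phosphate pathway, differed by 2.48 (adjusted p = 0.021) and lay at 1.08 here and −1.40 in αMHC hearts. Atp10d, a lipid transporter, differed by −2.39 (adjusted p = 0.023) and lay at −1.18 here and 1.21 there. Against the same cross at E9.5, Slc7a3 differed by 3.44 (adjusted p = 4.0e-05) and Ttc41 by −1.32 (adjusted p = 0.023), with Ttc41 at 0.24 at E11.5 and 1.57 at E9.5. Groups of 3 arrays were too small for a test of single arrays that stand apart.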

How the results depend on the processing

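Of the genes named in the text, Actc1 (−0.01), Nppa (−0.04), Hbb-y (−0.03) and Eif2s3y (0.91), none of them called, changed direction under an alternative. Actc1 was at 0.030 with the replicate block and no replicate 2, and ran from −0.066 to 0.056 with 1 array left out, above 0 without control 3 (0.036) or knockout 2 (0.056). Nppa was at 0.099 and Hbb-y at 0.19 with the block and no replicate 3. With 1 array left out Nppa ran from −0.129 to 0.111 and Hbb-y from −0.137 to 0.151, highest without knockout 3 in both, and Hbb-y was at 0.0057 without control 3. Eif2s3y was at −0.36 with the block and no replicate 2 and at −0.45 with sex as a covariate. Beside 13 higher and 45 lower genes, equal array weights gave 35 and 89, every probe as a row 33 and 73, a filter at the 75th percentile 7 and 25, the 6 arrays alone 3 and 11, and those with the replicate block 189 and 166. The replicate block gave 254 and 235, and without replicate 1, 2 or 3 (chosen after seeing the data) 74, 42 and 382 higher and 61, 53 and 242 lower genes. With 1 array left out the counts ran from 5 to 132 higher and from 15 to 103 lower: leaving out control 1 gave 9 and 15, control 2 gave 12 and 35, control 3 gave 5 and 15, knockout 1 gave 8 and 23, knockout 2 gave 9 and 28, and knockout 3 gave 132 and 103. Thap11 passed at −0.68 with the 6 arrays alone and the replicate block. Genes whose effect differed from E9.5 were 1 and 1, with the replicate block 40 and 14, and with equal weights 0 lower. Those that differed from αMHC hearts were 5 and 4, with the replicate block 10 and 9, and with equal weights 1 and 0. Among list medians, stress transporters moved to 0.640 with the 75th percentile filter and 0.205 without a filter, tRNA synthetases to 0.193 with the replicate block and no replicate 3, and the endoplasmic reticulum list to −0.141 with the block and no replicate 2. The mitochondrial ribosome moved to −0.012 (block, no replicate 2) and −0.019 (sex), complexes II and III to −0.088 (block, no replicate 3), Ronin and Hcf-1 bound genes to −0.020 (mean of probes), −0.028 (no filter) and −0.012 (block, no replicate 2), and genes bound without Hcf-1 to −0.013 (block, no replicate 3). With 1 array left out, medians ran from 0.196 to 0.378 for stress transporters, −0.180 to −0.136 for the endoplasmic reticulum, −0.121 to −0.029 for the mitochondrial ribosome, −0.234 to −0.022 for cardiomyocyte markers, −0.054 to −0.014 for Ronin and Hcf-1 bound genes 0.446 to 1.524 for erythroid markers, 0.281 to 0.755 for heme and iron, 0.056 to 0.151 for tRNA synthetases, −0.097 to 0.010 for complex I, −0.237 to −0.110 for complexes II and III, −0.098 to −0.012 for cytochrome oxidase and ATP synthase, −0.204 to −0.048 for the TCA cycle, −0.239 to −0.093 for fatty acid oxidation, −0.297 to −0.113 for glycolysis, −0.174 to 0.059 for the compact layer and 0.015 to 0.070 for genes bound without Hcf-1. A common median and quantile normalization changed no call of a named gene.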
